A study of Mus musculus with 7 samples.

Results

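Heat shock proteins and their DNAJ partners fold, hold and refold other proteins, and 72 of the 23358 rows of the expression table belong to them. The members were taken by symbol: Hspa, Hspb, Hspd, Hspe and Hsph genes with a number, the Hsp90 genes, and Dnaja, Dnajb and Dnajc genes with a number, each in a row of its own. They are 14 Hspa and Hsph genes, 3 Hsp90 genes, the chaperonin pair Hspd1 and Hspe1, 8 Hspb, 4 Dnaja, 13 Dnajb and 28 Dnajc genes, and GENCODE M21 lists all 72 as protein-coding.

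The series holds 3 control libraries and 4 libraries of a group whose label says that Tgfbr2 is lacking, called Tgfbr2-deficient here; Tgfbr2 encodes a receptor for transforming growth factor β. All 7 come from C57Bl6 mouse embryo brain at stage E14.5 and are labelled endothelial cells. Cells were sorted on TdTomato, the red protein that the Ai14 allele makes after recombination, 2000 to 5000 cells were used for RNA, and poly(A)+ libraries were read as single ends of 50 bases. The labels name neither the Cre driver nor the deleted exons nor the alleles of the controls. They do not say whether each library is its own embryo, so the q-values may reflect technical spread between libraries and nothing more.

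The values are FPKM, fragments scaled to transcript length and sequencing depth, with 1 value per gene and group made by the authors from all libraries of the group. Values per library were not analysed here, so no SD can be given and the depth is unknown. The error measure of a gene is the q-value in the authors' deposited table. A gene was called higher or lower in the Tgfbr2-deficient group at q under 0.05, among 13356 genes that the authors tested and that reached 1 FPKM in at least 1 group. Of these, 23.9% were called higher, 14.7% were called lower and 38.6% were called in either direction.

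The markers of the labelled cell type were low in the control group and moved with the comparison, with a median of 2.51 FPKM in controls and 29.4 FPKM in Tgfbr2-deficient cells over 10 endothelial genes. They summed to 33.1 FPKM in controls against 305 FPKM in Tgfbr2-deficient cells, and 10 of 10 were called higher. The most abundant were Cldn5, a claudin of tight junctions, and Kdr, a VEGF receptor. The 10 microglia and macrophage markers, led by the complement genes C1qb and C1qc, summed to 9522 and 4245 FPKM, and 10 of 10 were called lower. The sums were 123 and 1025 FPKM for 6 fibroblast markers (Col1a1 and Col3a1 the most abundant), 8.70 and 53.7 FPKM for 6 pericyte and smooth muscle markers (Pdgfrb and Acta2), 355 and 2332 FPKM for 6 erythroid markers (Alas2 and Hbb-bh1), 107 and 246 FPKM for 6 neuron markers (Tubb3 and Stmn2) and 45.1 and 132 FPKM for 6 neural progenitor markers (Fabp7 and Nes). Of these 30 genes, all but Tagln were called higher, and no marker was listed at 0. Fewer cells of a type and less RNA per cell cannot be told apart in such libraries, and the part of these shifts in the chaperone values was not tested. Tgfbr2 itself was not called, at 91.1 FPKM in controls and 65.4 FPKM in Tgfbr2-deficient cells (q = 0.0953 in the authors' deposited table).

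Hsp70 proteins grip exposed hydrophobic stretches of unfolded proteins in a cycle driven by ATP. DNAJ proteins, also called Hsp40 or J-domain proteins, bring them clients and speed up that ATP use, and nucleotide exchange factors such as the Hsp110 proteins reset the cycle. Hsp90 finishes the folding of kinases, receptors and other clients, small heat shock proteins of the Hspb group hold unfolded proteins without ATP, and Hsp60 with its lid Hsp10 forms a closed folding chamber in mitochondria. Heat shock factor 1 induces many of these genes through heat shock elements, which are alternating inverted GAA and TTC units. The ER members are induced by ATF6 and XBP1 of the unfolded protein response through the ER stress response element.

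Promoter sequences from RefSeq (GRCm38.p6, 250 bases before to 50 after each start) were found for 58 of the 72 members. The other members were not searched, so they count neither as having nor as lacking a match. Stretches with a match upstream of the start are shown because they mark which searched members carry the letters of either element. The heat shock element was searched on both strands as 3 alternating GAA and TTC units, each pair of neighbours joined by NN as in GAANNTTC. It was found for 4 of 58 members (6.9%), namely Hspd1, Hspe1, Dnajb6 and Hsph1, and for 179 of 27025 genes in all (0.662%). The ER stress response element, CCAAT and CCACG with 9 bases of any kind between them, on either strand and added after the expression values were seen, was found for 3 of 58 members (5.17%), Hspa5, Hsp90b1 and Dnajc3, and for 37 of 27025 genes (0.137%). Each stretch runs 5′ to 3′ on the strand of the gene and ends upstream of its RefSeq start, and capitals mark the matched letters.
Hspe1 (chr1:55088053-55088082, plus strand): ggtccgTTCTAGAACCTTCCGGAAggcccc
Dnajb6 (chr5:29735843-29735872, plus strand): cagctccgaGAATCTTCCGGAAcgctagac
Hspa5 (chr2:34772019-34772048, plus strand): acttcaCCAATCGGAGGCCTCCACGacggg
Hsp90b1, distal (chr10:86705593-86705694, minus strand): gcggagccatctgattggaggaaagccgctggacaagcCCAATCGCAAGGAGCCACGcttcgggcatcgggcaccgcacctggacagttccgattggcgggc
Hsp90b1, proximal (chr10:86705510-86705596, minus strand): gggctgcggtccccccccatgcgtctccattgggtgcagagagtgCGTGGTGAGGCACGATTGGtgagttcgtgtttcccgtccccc
Dnajc3 (chr14:118937782-118937890, plus strand): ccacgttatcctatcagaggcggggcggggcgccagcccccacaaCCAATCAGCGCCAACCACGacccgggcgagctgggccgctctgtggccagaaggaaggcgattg
The Hspe1, Dnajb6 and Hspa5 stretches are 30 bases long because GENCODE M21 places exons of other transcripts there. The Hspe1 match lies between 89 and 72 bases before the Hspe1 start and, read on the other strand, between 144 and 127 bases before the Hspd1 start, since 215 bases separate these divergent starts. In Hspe1 and Hspd1 a pair of overlapping 3-unit matches makes a run of 4 units. In Hsph1 the match lies after the start. A match is a description of letters, and a missing match says only that these letters are not in this window.

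Few chaperone genes passed the test, and the calls ran in both directions. Of the 63 members that the authors tested, 9 were called higher (14.3%, against 23.9% of all tested genes) and 6 were called lower (9.52%, against 14.7%), while 48 did not pass. The other 9 members have no test: Dnajb8 and Dnajc5g were listed at 0 in both groups, Dnajc5b in the control group, and Dnajb7, Dnajc22, Hspa1l, Hspb3, Hspb7 and Hspb9 stood under 1 FPKM. Median levels of the 9 higher genes were 1.49 FPKM in controls (range 0.446 to 6.70) and 8.99 FPKM in Tgfbr2-deficient cells (1.66 to 17.6). For the 6 lower genes they were 26.0 FPKM (17.3 to 98.4) and 17.7 FPKM (11.0 to 62.6). The higher genes were therefore scarce transcripts and the lower genes were of middle abundance, and the sizes differed as well: 8 of the 9 rises reached a fold of 2 or more and 0 of the 6 falls did. With a fold of 2 also required, 20.1% of all tested genes were called higher and 2.76% lower. Of the tested members, 5 reached 1 FPKM only in the Tgfbr2-deficient group, and 3 of these are among the 9 called higher, so the counts of those that passed the filter are a description only.

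**Figure D1:**
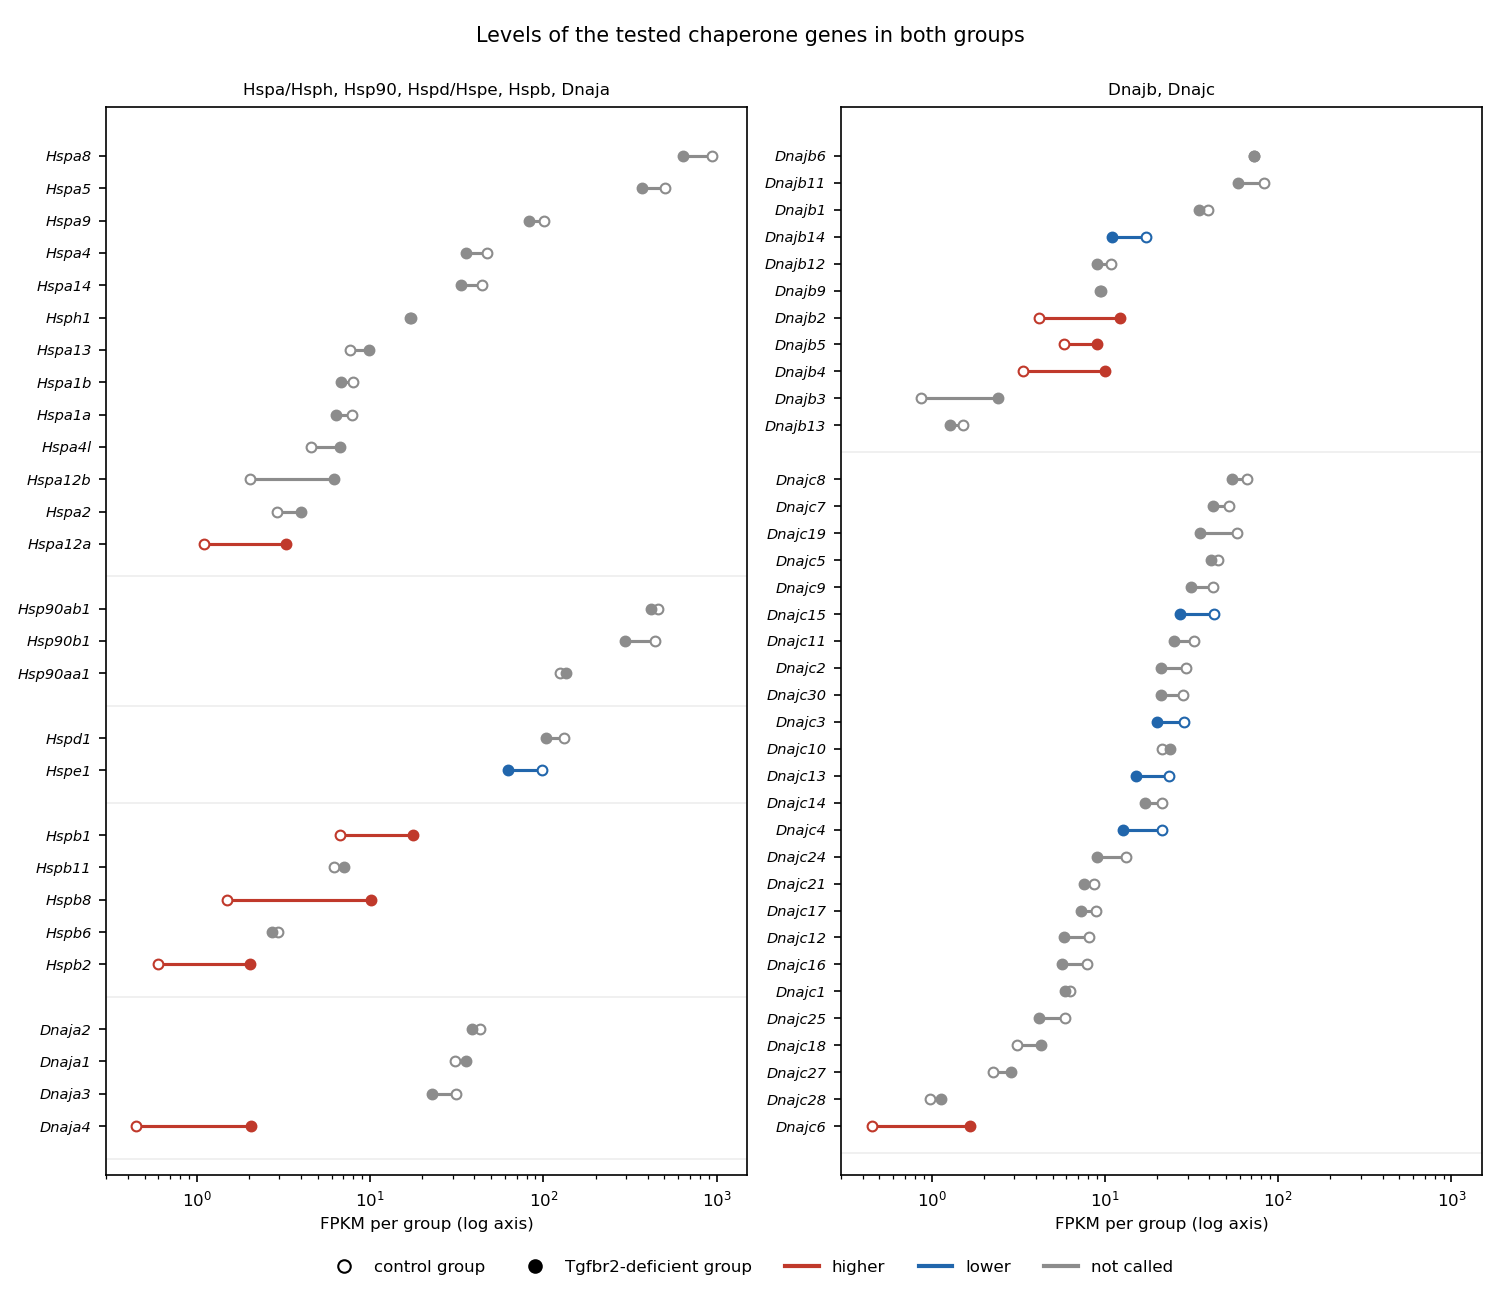
FPKM on a log axis for the 63 tested chaperone genes, ordered by mean level within each class. Open circles are the control group and filled circles the Tgfbr2-deficient group, 1 value each with no error bar, and colours give the call at deposited q under 0.05. The red lines of the 9 higher genes all end at or below 17.6 FPKM, and the blue lines of the 6 lower genes start between 17.3 and 98.4 FPKM.

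Level and direction went together for members and for all tested genes. Among tested genes with a mean of under 5 FPKM over both groups, 44.8% were called higher and 2.93% lower, and of 12 members there, 4 were higher and 0 lower. From 5 to 20 FPKM, 19.5% of all tested genes were higher and 9.68% lower, and of 24 members 5 were higher and 3 lower. These 24 members were called about as often as the other genes of that band. From 20 to 100 FPKM, 7.38% were higher and 30.3% lower (37.6% in either direction), and of 21 members 0 were higher and 3 lower (14.3%). At 100 FPKM or more, 5.3% were higher and 42.3% lower, and of 6 members none passed on the authors' deposited q-values (Cuffdiff), with 1 lower and 0 higher at an unadjusted p under 0.05. The median log2 fold of FPKM + 1 in these 4 bands was 0.61, −0.19, −0.38 and −0.39 for members and 0.52, −0.09, −0.36 and −0.50 for all tested genes.

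**Figure D2:**
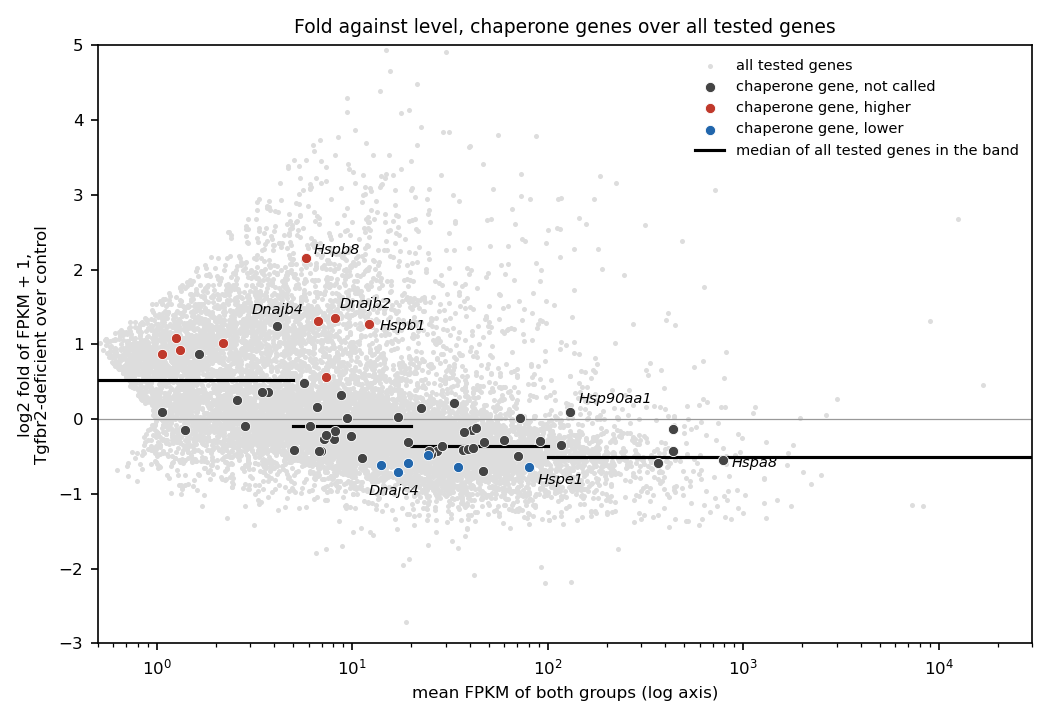
Log2 fold of FPKM + 1, Tgfbr2-deficient over control, against the mean FPKM of both groups on a log axis. Grey dots are all 13356 tested genes (29 lie outside the vertical range drawn), large dots the 63 tested chaperone genes, and black lines the medians of all tested genes in 4 bands of level, which go from 0.52 in the lowest band to −0.50 in the highest.

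Over the 63 tested members the median log2 fold of FPKM + 1 was −0.17, beside −0.08 over all tested genes. The sign of so small a shift depends on the scaling: when folds are centred on 75 ribosomal protein genes each gains 0.54, and the member median becomes 0.38. Under that centring 55 of 63 member folds lie above 0, against 24 without it. Over all tested genes 11318 of 13356 folds lie above 0 under it, against 6019 without it, so the shift is general. Among the called members 1, Dnajc3, changes sign. Summed FPKM of the tested members was 3889 in controls and 3052 in Tgfbr2-deficient cells, 0.775% and 0.697% of the summed FPKM of all tested genes. The 6 most abundant members held 66.8% and 64.4% of the member sum, and the 9 higher genes 0.621% and 2.23%.

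The Hspa and Hsph class holds the Hsp70 proteins and the Hsp110 exchange factors, and 1 of its 13 tested genes was called (7.69%, beside 38.6% of all tested genes). Hspa12a, an atypical and distant Hsp70 relative (chr19:58795751-58860984), rose from 1.10 to 3.27 FPKM, with a log2 fold of 1.57 and q = 2.9e-04 in the authors' deposited table. Its near relative Hspa12b, known from endothelium, was at 2.03 and 6.18 FPKM with a fold of like size, 1.61, but q = 0.598 in the authors' deposited table. The locus given for Hspa12b spans 477413 bases where GENCODE annotates a gene of 19042 bases, so its value may hold reads of neighbouring genes.

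The most abundant Hsp70 genes did not pass. Hspa8, the constitutive cytosolic Hsp70 and the most abundant member, was at 939 and 642 FPKM in control and Tgfbr2-deficient cells (q = 0.204 in the authors' deposited table). Hspa5, the ER Hsp70 known as BiP, was at 504 and 373 FPKM (q = 0.254 in the authors' deposited table). Hspa9, the mitochondrial Hsp70, was at 101 and 82.1 FPKM (q = 0.293 in the authors' deposited table). Under ribosomal centring the fold of Hspa8 shrinks to −0.01 and those of Hspa5 and Hspa9 turn to 0.11 and 0.25, so no direction can be given for them.

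The strictly stress-inducible Hsp70 genes were low in both groups. Hspa1a was at 7.88 and 6.39 FPKM and Hspa1b at 7.99 and 6.76 FPKM, with q = 0.399 and 0.516 in the authors' deposited table. These neighbours on chromosome 17 encode nearly the same protein, so reads may be split between them and their separate values are uncertain. Hsph1, an Hsp110 exchange factor that heat shock induces, was at 16.9 and 17.2 FPKM, and its relative Hspa4 at 47.3 and 36.0 FPKM. Hspa4l, also of the Hsp110 group, was the member closest to the threshold among those with a higher value, at 4.56 and 6.74 FPKM with q = 0.0530 in the authors' deposited table.

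No Hsp90 gene was called. Hsp90ab1, the constitutive cytosolic form, was at 457 and 417 FPKM, and Hsp90aa1, the inducible form, at 125 and 135 FPKM, with q = 0.747 and 0.766 in the authors' deposited table. Hsp90b1, the ER form known as Grp94, whose promoter is shown above with a pair of ER stress response elements, was at 441 and 295 FPKM, with p = 0.0470 and q = 0.102 in the authors' deposited table. Thus 0 of 3 passed in the Cuffdiff test at q under 0.05 and 1, with a lower value, at an unadjusted p under 0.05. Beside this, 38.6% of all tested genes were called, and 47.6% of those at 100 FPKM or more, the band of these 3 genes.

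Of the mitochondrial chaperonin genes, which share the promoter stretch shown above, the small partner was called. Hspe1, which encodes the Hsp10 lid (chr1:55088148-55091317), fell from 98.4 to 62.6 FPKM, with a log2 fold of −0.65 and q = 0.0145 in the authors' deposited table. Hspd1, which encodes Hsp60 (chr1:55077834-55087932), was at 131 and 103 FPKM, a log2 fold of −0.36 with q = 0.210 in the authors' deposited table. Under ribosomal centring the fold of FPKM + 1 shrinks to −0.10 for Hspe1 and turns to 0.19 for Hspd1, and the difference between the pair was not tested. GENCODE transcripts of Hspd1 cover 7.6% of the exon bases of Hspe1 and the library kit does not keep strand, so some reads could belong to either gene.

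Small heat shock genes included the largest rise among the members. Hspb8, which works with the co-chaperone Bag3 in selective autophagy (chr5:116408495-116422864), rose from 1.49 to 10.1 FPKM, with a log2 fold of 2.76 and q = 2.9e-04 in the authors' deposited table. Hspb1, known as Hsp25 or Hsp27 and a regulator of actin (chr5:135887919-135889563), rose from 6.70 to 17.6 FPKM, with a log2 fold of 1.40 and q = 7.9e-04 in the authors' deposited table. Hspb2, best known from muscle, rose from 0.594 to 2.04 FPKM (log2 fold 1.78, q = 0.0303 in the authors' deposited table). Cryab, the αB-crystallin gene beside Hspb2 and not a member by symbol, shares 30.2% of the annotated Hspb2 exon bases and was at 3.22 and 5.57 FPKM with q = 0.0787 in the authors' deposited table, so the Hspb2 value is uncertain.

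The other tested Hspb genes did not follow. Hspb6, known as Hsp20, was at 2.94 and 2.71 FPKM, and Hspb11, a subunit of the ciliary transport complex rather than a classical small heat shock protein, at 6.22 and 7.06 FPKM. In all, 3 of 5 tested Hspb genes were called higher and 0 lower, beside 23.9% higher among all tested genes and 44.8% among those under 5 FPKM, the band of Hspb2 and Hspb6. The other 3 Hspb genes had no test and Hspb2 reached 1 FPKM only in the Tgfbr2-deficient group, so nothing is read from the class count or median. Bag3, named here after its value was seen, was at 12 and 10.1 FPKM with q = 0.412 in the authors' deposited table. Bag3 was thus not called, so no direction is given for it, and its difference from Hspb8 was not tested. Markers of every listed cell type but microglia and macrophages were higher in the same group as Hspb8, Hspb1 and Hspb2. They are the endothelial, fibroblast, pericyte and smooth muscle, erythroid, neuron and neural progenitor lists. Their part in the values of these genes was not tested.

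**Figure D3:**
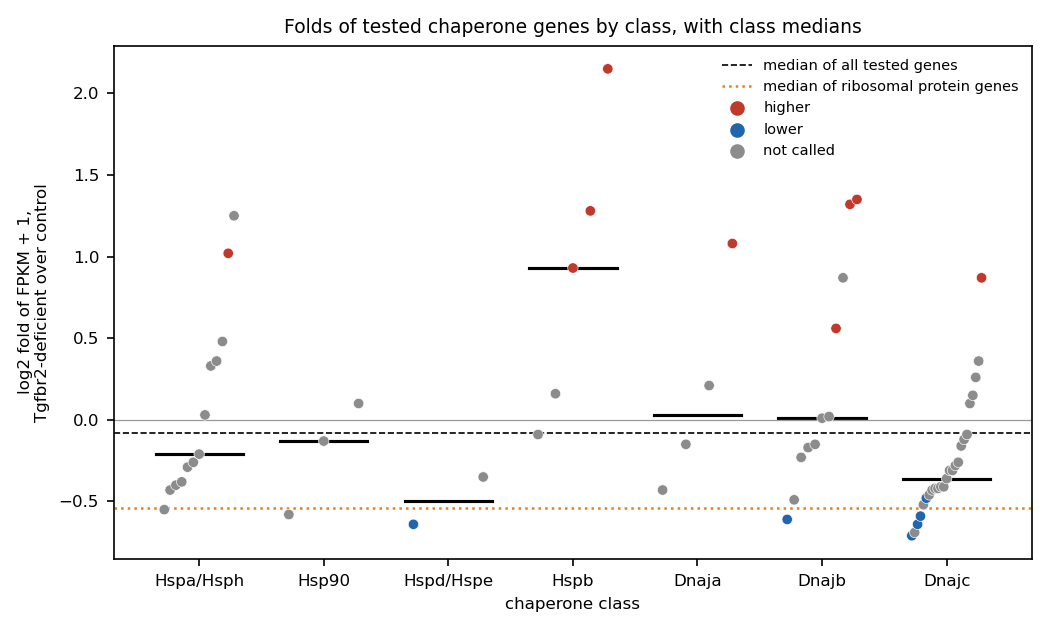
Log2 fold of FPKM + 1 of each tested chaperone gene by class, with class medians as black bars, the median of all tested genes (−0.08) as a dashed line and that of ribosomal protein genes (−0.54) as a dotted line. Hspb8 is the highest point at 2.15, the Hspb median is the value of Hspb2 alone (0.93), and the called lower genes lie between −0.71 and −0.48.

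Dnaja genes encode the DNAJ proteins closest to the bacterial form. Dnaja4 rose from 0.446 to 2.05 FPKM, with a log2 fold of 2.2 and q = 2.9e-04 in the authors' deposited table. However, 44.1% of its annotated exon bases are shared with Wdr61, which was at 44.6 and 36.9 FPKM, so reads of these genes may be mixed. The cytosolic Dnaja1 and Dnaja2 were at 30.9 and 35.8 and at 42.9 and 38.6 FPKM, and the mitochondrial Dnaja3 at 31.2 and 22.9 FPKM with q = 0.0843 in the authors' deposited table. These 3 abundant genes were not called.

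Of the 11 tested Dnajb genes, 3 were called higher, 27.3% beside 23.9% of all tested genes, and 1 lower, 9.09% beside 14.7%, shares that are near those of all genes. Dnajb2, which binds ubiquitin and is abundant in neurons (chr1:75236423-75245692), rose from 4.19 to 12.2 FPKM, with a log2 fold of 1.54 and q = 2.9e-04 in the authors' deposited table. Dnajb4, a cytosolic Hsp40 (chr3:152183955-152210299), rose from 3.39 to 9.98 FPKM, with a log2 fold of 1.56 and q = 2.9e-04 in the authors' deposited table. Dnajb5 rose from 5.78 to 8.99 FPKM with a smaller log2 fold of 0.64 and q = 0.0440 in the authors' deposited table. The neuron markers were higher in the same group as Dnajb2, as were those of every other listed cell type but microglia and macrophages. Their part in its value was not tested.

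Dnajb14, which sits in the ER membrane (chr3:137867675-137908931), fell from 17.3 to 11.0 FPKM, with a log2 fold of −0.65 and q = 0.0287 in the authors' deposited table. Under ribosomal centring its fold shrinks to −0.07. Its close relative Dnajb12 was at 10.8 and 9.01 FPKM and was not called. The most abundant Dnajb genes did not pass: Dnajb6, a suppressor of protein aggregation whose promoter holds the heat shock element shown above, was at 72.1 and 73.0 FPKM, and Dnajb1, the main heat-inducible Hsp40, at 39.2 and 34.9 FPKM. The ER co-chaperone Dnajb11 lay just past the threshold, at 82.8 and 58.7 FPKM with q = 0.0513 in the authors' deposited table. Dnajb9, an ER member and XBP1 target, was at 9.36 and 9.44 FPKM.

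Dnajc genes, which share little beyond the J domain, had 4 of 25 called lower, 16% beside 14.7% of all tested genes, and 1 called higher, 4% beside 23.9%. The share called lower is thus near that of all genes. Dnajc4 (chr19:6987911-6992272) fell from 21.4 to 12.7 FPKM, with a log2 fold of −0.75 and q = 0.0318 in the authors' deposited table, the largest fold among the 6 called lower. Dnajc13, an endosomal sorting protein (chr9:104151597-104262930), fell from 23.4 to 15.2 FPKM (log2 fold −0.62, q = 0.0145 in the authors' deposited table). Dnajc15, a protein of the inner mitochondrial membrane, fell from 42.6 to 27.0 FPKM (log2 fold −0.66, q = 0.0448 in the authors' deposited table). Under ribosomal centring the folds of FPKM + 1 shrink to −0.17 for Dnajc4, −0.05 for Dnajc13 and −0.10 for Dnajc15, so for these too a fall relative to ribosomal protein genes is not established.

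Dnajc3, an ER co-chaperone that also restrains the stress kinase PERK and whose promoter is shown above, was called lower by the narrowest margin. It went from 28.6 to 20.1 FPKM, with a log2 fold of −0.50 and q = 0.0452 in the authors' deposited table, and its fold of FPKM + 1 turns from −0.48 to 0.06 under ribosomal centring, so its direction depends on the scaling. Dnajc6, the neuronal protein auxilin that uncoats clathrin vesicles, rose from 0.455 to 1.66 FPKM (log2 fold 1.87, q = 2.9e-04 in the authors' deposited table). The most abundant Dnajc genes were not called: Dnajc8, a splicing factor, was at 65.8 and 54.2 FPKM, Dnajc7, which links Hsp70 and Hsp90, at 52.2 and 41.9 FPKM, and Dnajc19, of the mitochondrial import motor, at 58.1 and 35.6 FPKM with q = 0.151 in the authors' deposited table. Of the 25 tested Dnajc genes, 20 had a fold below 0, beside 7337 of 13356 over all tested genes. The class median was −0.36, also above that of the ribosomal protein genes.

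Grouped by compartment instead, the stress-inducible, ER and mitochondrial members gave few calls, and these are to be read beside the 23.9% of all tested genes called higher and 14.7% called lower. The stress-inducible list of the cytosol and mitochondria held Hspa1a, Hspa1b, Hspa8, Hsp90aa1, Hsph1, Hspb1, Dnajb1, Dnaja1, Hspd1 and Hspe1. Hspa8 in it is a constitutive form, and Hspd1 and Hspe1 are counted in the mitochondrial list as well. Of these 10 members, Hspb1 was called higher and Hspe1 lower (10% each), with a median log2 fold of −0.19. Of 10 ER members, Dnajb14 and Dnajc3 were called lower (20%) and 0 higher, with a median of −0.33 and summed levels of 1130 and 816 FPKM. Of 8 mitochondrial members, Hspe1 and Dnajc15 were called lower (25%) and 0 higher, all 8 had a fold below 0, and the median was −0.43. Their mean levels ran from 24.7 FPKM (Dnajc30) to 117 FPKM (Hspd1). Of all tested genes, 30.3% from 20 to 100 FPKM and 42.3% at 100 FPKM or more were called lower. Over all tested genes 7337 of 13356 folds lay below 0. Beside the compartment medians stand −0.08 over all tested genes and −0.36 over all tested genes of 20 to 100 FPKM. All 3 compartment medians lie above the −0.54 of the ribosomal protein genes, so each turns positive when folds are centred on those.

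Other genes of the folding network gave few calls, beside the 23.9% of all tested genes called higher and 14.7% called lower. Of 19 co-chaperones of Hsp70 and Hsp90, 2 were called lower (10.5%) and 0 higher, with 3 lower and 0 higher at an unadjusted p under 0.05: Hspbp1, an Hsp70 exchange factor, fell from 68.0 to 45.6 FPKM and Cdc37, which brings kinases to Hsp90, from 105 to 73.7 FPKM, with q = 0.0221 and 0.0495 in the authors' deposited table. Ahsa1, which speeds up the Hsp90 ATPase, was at 131 and 93.6 FPKM and was not called. Of the 3 tested genes in the heat shock factor list 1 was called, and it is not itself a factor. Hsbp1, which binds and restrains heat shock factor 1, fell from 159 to 108 FPKM (q = 0.0280 in the authors' deposited table). The factors Hsf1, at 32.8 and 23.6 FPKM, and Hsf2, at 1.13 and 1.83 FPKM, were not called. Hsf4 was not tested.

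The cytosolic chaperonin, which folds actin and tubulin, had 0 of 8 subunits called on the authors' deposited q-values (Cuffdiff) and 1 lower, Cct5 at 210 and 151 FPKM, at an unadjusted p under 0.05. Cct4 was at 109 and 85.2 FPKM and Cct8 at 141 and 110 FPKM. Of 6 prefoldin genes, which hand clients to the chaperonin, 1 was called lower (16.7%): Pfdn5 fell from 77.0 to 52.5 FPKM (q = 0.0436 in the authors' deposited table), while Pfdn1 at 31.6 and 22.6 FPKM and Pfdn6, listed as H2-Ke2, at 69.7 and 55.3 FPKM were not called. Of 9 genes of mitochondrial import and proteolysis, 1 was called lower (11.1%): Trap1, the mitochondrial Hsp90, fell from 55.8 to 38.0 FPKM (q = 0.0276 in the authors' deposited table). Timm23 was at 119 and 87.8 FPKM and Timm44 at 27.1 and 20.9 FPKM. All 8 chaperonin and all 9 mitochondrial folds lay below 0, with medians of −0.29 and −0.28 that turn to 0.25 and 0.26 under ribosomal centring. Over all tested genes 7337 of 13356 folds lay below 0. The median of all tested genes was −0.36 from 20 to 100 FPKM and −0.50 at 100 FPKM or more, the levels of most of these genes. The log2 folds of FPKM + 1 of the called genes in these lists ran from −0.57 for Hspbp1 through −0.56 for Hsbp1 and −0.54 for both Pfdn5 and Trap1 to −0.50 for Cdc37. They lie close to the ribosomal median of −0.54, so their direction relative to those genes is not established, and that of Cdc37 turns.

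Of 20 genes of ER folding and the unfolded protein response, 3 were called lower, 15% beside 14.7% of all tested genes, and 2 higher, 10% beside 23.9%, so the share called lower is that of all genes. The lower genes were Sdf2l1, an ER co-chaperone partner, from 182 to 97.9 FPKM (q = 2.9e-04), Xbp1, the transcription factor of the IRE1 branch, from 156 to 94.8 FPKM (q = 0.00482), and Edem1, of ER-associated degradation, from 52.0 to 34.8 FPKM (q = 0.0275 in the authors' deposited table). Their log2 folds of FPKM + 1 were −0.89 for Sdf2l1, −0.71 for Xbp1 and −0.57 for Edem1, beside the ribosomal median of −0.54. For Xbp1 and Edem1 a fall relative to ribosomal protein genes is thus not established. Both genes called higher belong to the PERK branch: Trib3 rose from 3.70 to 28.5 FPKM (q = 2.9e-04) and Atf4 from 62.0 to 102 FPKM (q = 0.00875 in the authors' deposited table). ATF4 targets outside this list, called in both directions, are given further below. Within the list, some other genes of these branches were not called. Ddit3 was at 10.3 and 26.4 FPKM, Eif2ak3, which encodes PERK, at 10.9 and 10.5 FPKM, and Ern1, which encodes IRE1, at 3.11 and 3.02 FPKM. Their q-values were 0.208, 0.886 and 0.921 in the authors' deposited table, so no branch as a whole is given a direction. The list median log2 fold was −0.42. The ER members Hspa5, Hsp90b1 and Dnajb11 were not called, and under ribosomal centring their folds of 0.11, −0.04 and 0.05 give them no direction. The difference between the branches was not tested.

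Immediate-early genes, which respond to cell handling as well as to growth factors, differed more than the chaperones did in the same libraries, a difference given as counts and not tested. Of 17 tested, 6 were called lower and 4 higher, 58.8% in all against 23.8% of tested chaperone genes and 38.6% of all tested genes. Fos fell from 354 to 106 FPKM, Egr1 from 94.8 to 34.0 FPKM and Zfp36 from 401 to 154 FPKM, each with q = 2.9e-04 in the authors' deposited table. In the stress-inducible list of 10 members, which includes the constitutive Hspa8, Hspb1 was called higher, Hspe1 lower and 8 were not called. Among those 8 are Hspa1a, Hspa1b, Dnajb1, Hsph1 and Hsp90aa1.

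**Figure D4:**
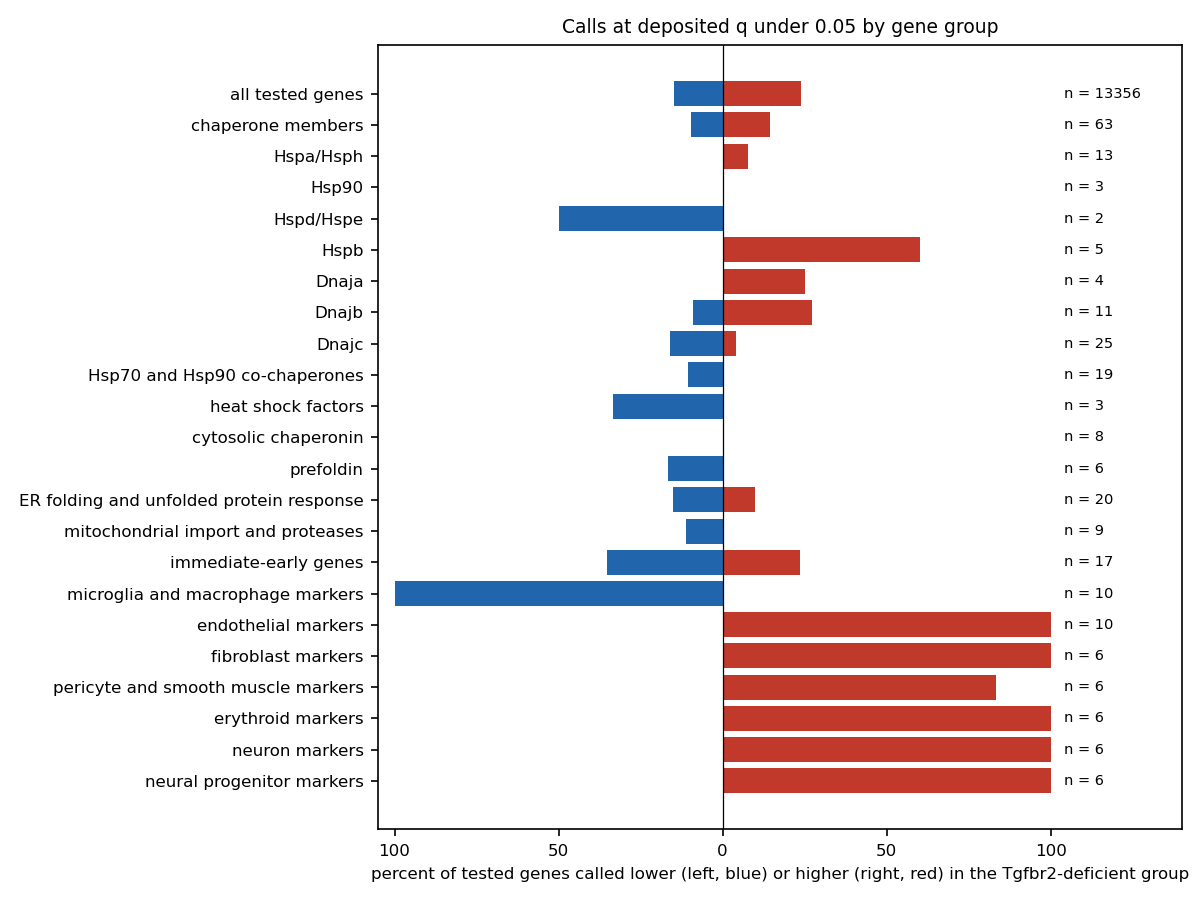
Share of tested genes called lower (blue, to the left) or higher (red, to the right) in the Tgfbr2-deficient group at deposited q under 0.05, for all tested genes, the chaperone members, their 7 classes, 7 lists of related genes and 7 lists of cell type markers, with the number tested at the right. The marker lists reach 100% in all but the pericyte and smooth muscle list (83.3%), and the chaperone members reach 14.3% higher and 9.52% lower.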

How the data were processed

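Per the labels, RNA was amplified with the SMART-Seq v4 kit and libraries were made with Nextera XT, neither of which marks strand. Per the submitters' processing notes, reads were processed with TopHat2 0.7, Cufflinks 2.2.1 and Cuffdiff on mm10. The labels name no gene annotation and no test options. The authors' deposited FPKM values combine the libraries of each group. The authors' deposited log2 fold is that of the FPKM values with no pseudocount (largest difference 3.6e-05), the deposited test statistic, a score, was not used, and the deposited q-value equals a Benjamini-Hochberg adjustment of the deposited p-value over 14043 genes with status OK. The smallest p-value, 5e-05, is shared by 2425 genes, so these are not ranked among themselves. Columns of values per library numbered 0.

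Computed here with Python 3.11.15 and pandas 2.3.3 were calls (q under 0.05, status OK, at least 1 FPKM in 1 group), log2 folds of FPKM + 1, which understate the change of low genes, their medians, and promoter matches; the counting was tested on simulated data. Locus starts were raised by 1 to count from 1, and overlaps come from GENCODE M21 (GRCm38). Of 160 list symbols, 160 matched, 3 by RefSeq synonym. Members, lists and tests were chosen with earlier results of these data known. Named were every called member, the 3 most abundant uncalled members of each class, the 3 genes of smallest p (ties by fold) in each related list, the 2 most abundant markers, and others after their values were seen.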

Additional observations from a re-analysis of the deposited data

How the results depend on the processing

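No paired analysis was possible because the table holds 1 value per group, and for the same reason no library could be left out. With no FPKM filter or with q-values recomputed over the filtered genes, the chaperone counts were again 9 higher and 6 lower. At a minimum of 5 FPKM, 5 members were higher and the higher count became 0 for Hspa/Hsph, Dnaja and Dnajc. At q under 0.01, 7 members were higher and 0 lower, so the lower counts of Hspd/Hspe, Dnajb and Dnajc became 0, as did those of the co-chaperone, heat shock factor, prefoldin and mitochondrial lists. With a log2 fold of at least 1 also required, 8 members were higher and 0 lower, beside 20.1% and 2.76% of all tested genes. The same lower counts became 0, and in the ER list 1 was higher and 0 lower. Leaving out members with overlapping or merged loci, an alternative chosen after seeing the data, gave 7 higher and 5 lower of 46. The minimum of 5 FPKM and the locus rule left 52 and 46 tested members, while the q and fold settings kept 63. The 6 lower genes had q from 0.0145 to 0.0452 in the authors' deposited table (Cuffdiff), and 0 of them reached a fold of 2. Apart from the fold setting, shares of all tested genes were not computed, so whether a loss of calls is particular to the members cannot be said. The member median of −0.17 became −0.24 with 0.1 FPKM added, −0.28 at a minimum of 5 FPKM, −0.09 centred on all tested genes and 0.38 centred on ribosomal protein genes. That last centring reversed Dnajc3 (0.06) among called genes and, among genes not called, Hspa5 (0.11), Hspa9 (0.25), Hsp90ab1 (0.41), Hspd1 (0.19), Hspb6 (0.45), Dnaja2 (0.39), Dnaja3 (0.11), Dnajb11 (0.05), Dnajb1 (0.38), Dnajc8 (0.26) and Dnajc7 (0.23). With 2 alternating units in place of 3, 27.6% of members and 17% of all genes had a promoter with a heat shock element. With no depth known, the precision of members under 5 FPKM cannot be given.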

Other observations

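Trib3 and Atf4 were called higher and Xbp1 lower, though the fall of Xbp1 is not established relative to ribosomal protein genes. After those values were seen, lists of known ATF4 targets and of secretory genes under XBP1 and ATF6 were drawn up. They are given as values only. Of 18 tested ATF4 targets, 5 were called higher, 27.8% beside 23.9% of all tested genes, and 3 lower, 16.7% beside 14.7%, so the shares are near those of all genes. Slc7a11, at 0.149 and 0.951 FPKM, and Chac1, at 0.229 and 0.867 FPKM, are left out of these counts because they stayed under 1 FPKM. Both had higher values in the Tgfbr2-deficient group, with q = 2.9e-04 and 0.0199 in the authors' deposited table. Ddit4, an inhibitor of mTORC1, rose from 3.46 to 37.1 FPKM, Ppp1r15a, which reverses the phosphorylation of eIF2α, from 36.6 to 149 FPKM, and the amino acid transporter Slc7a5 from 40.1 to 94.2 FPKM, each with q = 2.9e-04 in the authors' deposited table. Vegfa rose from 2.08 to 26.0 FPKM and Cth, of cysteine synthesis, from 0.255 to 1.66 FPKM. Against these, Cebpb fell from 516 to 270 FPKM, Nupr1 from 34.1 to 14.3 FPKM and Shmt2, of mitochondrial one-carbon metabolism, from 85.2 to 55.1 FPKM. Asns, which makes asparagine, was at 18.0 and 18.7 FPKM and was not called. Of 13 tested secretory genes, 1 was called lower (7.69%) and 0 higher, with 3 lower and 0 higher at an unadjusted p under 0.05: Serp1, which stabilises membrane proteins in the ER, fell from 396 to 193 FPKM with q = 0.00102 in the authors' deposited table.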
